A study of Sus scrofa with 16 samples.

Results

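The genes examined here encode the core proteins that make microRNAs and silence messenger RNAs with them, namely the Argonautes, DICER1, DROSHA, DGCR8, XPO5 and the TNRC6 proteins. They were taken as the rows of the count table whose Ensembl identifier carries 1 of 10 symbols in the deposited gene annotation. Of the 10 symbols 8 were found, out of 25880 genes in the table, and all 8 were among the 13621 genes with enough counts to be tested. The symbols AGO1 and AGO4 had no row of their own and were not analysed here, apart from what is said of the AGO3 row below. RNA of the whole pituitary, both lobes together, was sequenced in 16 gilts of the Złotnicka White breed, a native Polish pig under conservation. In 8 of the gilts feed conversion, the feed used per unit of weight gain, was low (LFC), and in the other 8 it was high (HFC). All 16 were unrelated animals from different farms, were fed and housed alike on 1 test station, and are given as day 180 in the labels. The animals were put in the groups by their feed conversion, with no treatment named, so the groups can differ in anything that goes with it. Each animal's test ended at a set body weight, not at a set age. For this breed the study reports more days in test, lower daily gain and a higher fat content in the HFC gilts. These traits cannot be told apart from feed conversion here. The comparison asks which pituitary transcripts go with the feed conversion of the animal.

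A microRNA starts as a hairpin in a longer nuclear transcript. DROSHA and its RNA-binding partner DGCR8 cut the hairpin out, XPO5 carries it to the cytoplasm, and DICER1 trims it to a short duplex. An Argonaute protein keeps 1 strand as a guide to matching messenger RNAs, and a TNRC6 protein (GW182) bound to the Argonaute brings in the enzymes that shorten the poly(A) tail and block translation. Several Argonautes and TNRC6 proteins share these tasks, and AGO2 is the Argonaute best known for cutting its targets. In the pituitary this machinery has been linked to the development and hormone output of the gland.

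Each pig had between 6010629 and 11794256 counted reads. The pituitary hormones PRL, GH1 and CGA had means of at least 18949 CPM (counts scaled by edgeR's TMM method to a common library size) in each group, and marker lists of blood and vessels, macrophages and fibroblasts were also detected. The summed CPM of 9 endocrine genes ran from 91092 to 157437 in the LFC pigs and from 105205 to 222110 in the HFC pigs. In the same order the sums ran, for 7 macrophage genes from 223 to 356 and from 121 to 415, and for 6 fibroblast genes from 243 to 483 and from 297 to 869. For 4 genes of blood and vessels they ran from 377 to 1490 and from 183 to 1125, and most of that sum is HBB, the beta chain of haemoglobin. None of these marker genes had an adjusted p as low as 0.05, but 5 of them, named after their values were seen, had a nominal p (before adjustment) of 0.05 or less. PRL, the prolactin gene, had a mean of 30106 CPM in LFC and 72531 CPM in HFC (log2 fold change 1.27), and the fibroblast collagen COL1A2 had 104 and 193 CPM (0.89). The other 3 were the vessel genes VWF (0.78) and CDH5 (0.43) and CGA, the alpha chain of the glycoprotein hormones (-0.56). The remaining vessel gene PECAM1 was at 0.06. The remaining fibroblast genes were COL1A1 at 0.36, PDGFRA at 0.28, COL3A1 at 0.17, and DCN and LUM at -0.11 each. HBB was at -1.05 with a nominal p of 0.0517 in edgeR. Glial genes of the posterior lobe varied widely between pigs of both groups, GFAP from 5.79 to 1487 CPM in LFC and from 1.99 to 1443 CPM in HFC, and MBP from 110 to 2863 and from 104 to 1111 CPM. The part of these cell types in the results on the silencing genes was not tested. In whole glands, fewer cells of a type and less RNA per cell cannot be told apart.

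All 8 genes had higher mean expression in the HFC pigs, but none passed the test across the transcriptome. AGO2 showed the widest difference, at 1.55-fold, followed by TNRC6A at 1.34-fold, DICER1 at 1.33-fold and TNRC6B at 1.32-fold. A gene was called when its adjusted p was 0.05 or less and it differed at least 1.3-fold, and edgeR's quasi-likelihood test called 0 of the 8 genes and 0 of the 13621 genes tested (0%). A nominal p of 0.05 or less with a higher level in the HFC pigs was found for 3 of the 8 genes (AGO2, TNRC6A and DICER1), against 7.03% of all genes tested. In the opposite direction it was found for 0 of the 8 and for 4.41% of all genes, so that 11.4% of all genes had such a p in either direction. For no gene of the 8 did the groups separate fully, as they did for 0.00734% of all genes with the HFC pigs higher. DESeq2, which called 29 genes in the whole transcriptome (0.214%), called 0 of the 8. A log2 fold change above 0 was found in 8 of 8 genes and in 47.9% of all genes. Their median log2 fold change was 0.35, beside -0.01 over all genes. AGO2, TNRC6A and DICER1 are also in the gene silencing list that the study drew from its own calls on these pigs, so their direction is not independent evidence. The study made its calls with DESeq2 at the same thresholds and reports many more of them than the 29 found here. The cause of this gap was not tested. Of all genes with a nominal p of 0.05 or less, 61.4% were higher in the HFC pigs with TMM scaling, 52.6% with upper-quartile scaling and 46.0% with the library total as the scale, while all 8 silencing genes kept a log2 fold change above 0 under each scaling.

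**Figure D1:**
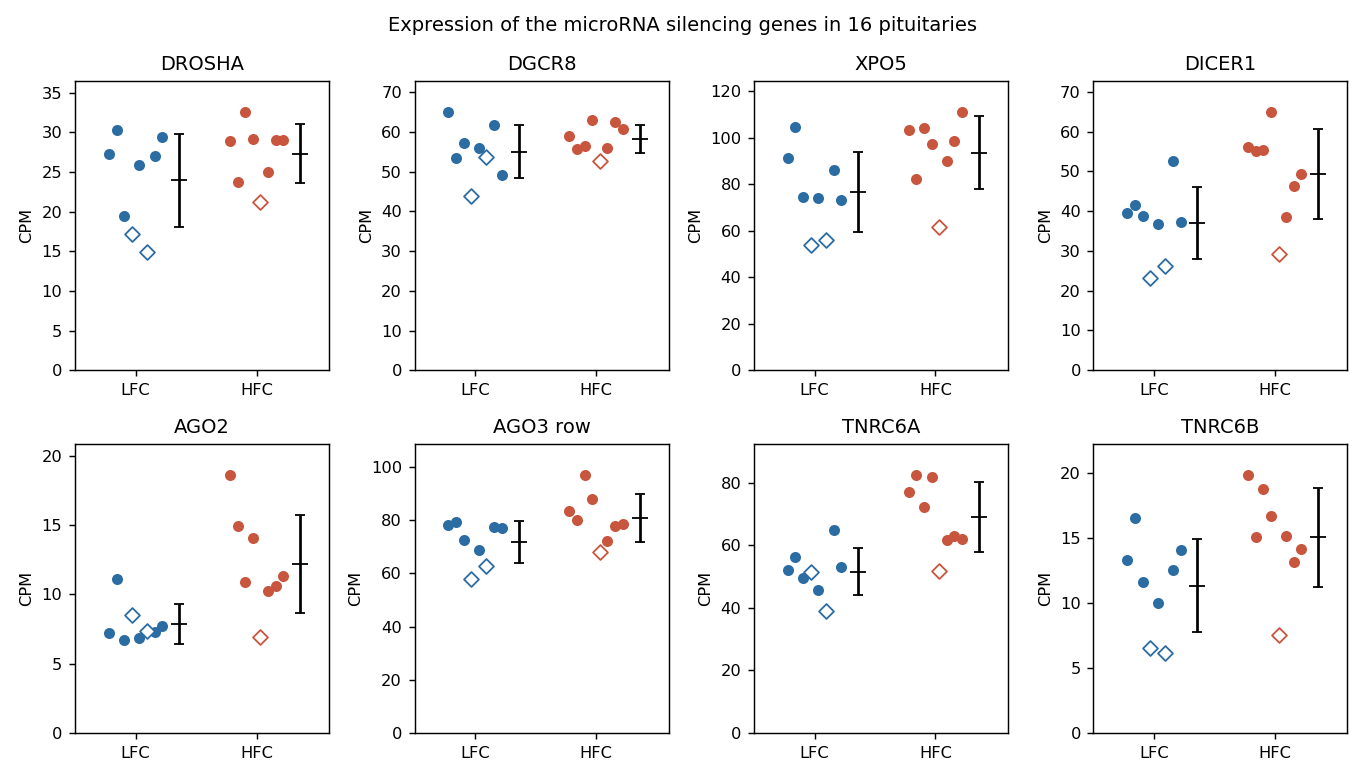
Expression of the 8 genes in CPM (vertical axes, from 0) in each LFC and HFC pig, with the mean and SD of each group of 8 in black; open diamonds are LFC replicates 4 and 6 and HFC replicate 5. The open diamond is the lowest HFC pig in every panel, and the groups overlap for every gene.

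The first steps are carried out by DROSHA, DGCR8 and XPO5. DROSHA (ENSSSCG00000016809, Sscrofa11.1 chromosome 16, 17684934 to 17848120) is the nuclear enzyme that makes the first cut. Its expression was 14.9 CPM in the lowest, 26.4 CPM in the median and 30.3 CPM in the highest LFC pig, and 21.2, 28.9 and 32.5 CPM in the HFC pigs. The groups overlapped over most of their range, with 5 of the 8 HFC pigs above the LFC median. The log2 fold change was 0.19, its standard error (SE) being 0.14 (edgeR quasi-likelihood, adjusted p = 0.542).

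DGCR8 (ENSSSCG00000010135, chromosome 14, 51452364 to 51491695) binds the hairpin for DROSHA. It had 44.0, 54.8 and 65.1 CPM in the lowest, median and highest LFC pig and 52.8, 57.7 and 62.9 CPM in the HFC pigs. This was the steadiest of the 8 genes in HFC, with a coefficient of variation between pigs of 6.23%, against 12.1% in the LFC group. Its log2 fold change, 0.08 with an SE of 0.08, was the smallest of the 8 (edgeR quasi-likelihood, adjusted p = 0.638). The deposited span of the gene also takes in 57.8% of the RefSeq gene TANGO2 and 41.9% of TRMT2A. Since the libraries did not keep the strand, reads of overlapping exons cannot be assigned to 1 gene with certainty.

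XPO5 (ENSSSCG00000001679, chromosome 7, 38529084 to 38570015) carries the hairpin out of the nucleus. It had 54.0, 74.2 and 105 CPM in the lowest, median and highest LFC pig and 61.4, 97.9 and 111 CPM in the HFC pigs. All but 1 of the HFC pigs were above the LFC median, and 1 was above the highest LFC pig. The log2 fold change was 0.29 with an SE of 0.14 (edgeR quasi-likelihood, adjusted p = 0.433). It overlaps its neighbours POLR1C and POLH by 6.97% and 1.97% of its span.

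DICER1 (ENSSSCG00000028225, chromosome 7, 116361678 to 116436396) makes the final cut in the cytoplasm. It had 23.3 CPM in the lowest, 38.0 CPM in the median and 52.6 CPM in the highest LFC pig, and 29.1, 52.2 and 64.9 CPM in the HFC pigs. Of the HFC pigs 4 were above every LFC pig and 7 were above the LFC median, while HFC replicate 5 was among the lowest of all 16. The means were 37.0 ± 9.09 CPM (SD, n = 8) and 49.3 ± 11.3 CPM (SD, n = 8). The log2 fold change was 0.42 with an SE of 0.16 (edgeR quasi-likelihood, adjusted p = 0.413). The nominal p was 0.0209 in all pigs and 0.0503 without HFC replicate 4, its highest value among the 16 fits that each left out 1 pig.

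AGO2 (ENSSSCG00000005935, chromosome 4, 2919588 to 3015328) had a wider difference than the other Argonaute row, labelled AGO3. In the LFC pigs it had 6.73 CPM in the lowest, 7.33 CPM in the median and 11.12 CPM in the highest animal. In the HFC pigs the corresponding values were 6.95, 11.09 and 18.6 CPM. The LFC pigs lay close together apart from replicate 2, the highest, and 7 of the 8 HFC pigs were above the LFC median, with HFC replicate 5 the exception. The means were 7.85 ± 1.43 CPM (SD, n = 8) and 12.2 ± 3.56 CPM (SD, n = 8), a log2 fold change of 0.64 with an SE of 0.17 (edgeR quasi-likelihood, adjusted p = 0.383). The nominal p was 0.00159, and it was at most 0.0043 in the 16 fits that each left out 1 pig. DESeq2 gave AGO2 an adjusted p of 0.0885. The deposited span overlaps the neighbour CHRAC1 by 1.21% of its length, and RefSeq AGO2 covers 47.6% of the span. AGO2 had between 37 and 167 counts per pig, so that counting error alone comes to 16.4% of the value at the lowest count, against a coefficient of variation between pigs of 18.3% in the LFC and 29.2% in HFC.

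The row labelled AGO3 (ENSSSCG00000003630, chromosome 6, 91967494 to 92212455) needs a reading of its own. On the same assembly, RefSeq places AGO4 at 91967499 to 92013030, AGO1 at 92038104 to 92076477 and AGO3 at 92081763 to 92225811. The deposited span therefore holds the whole of AGO4 and AGO1 and 90.7% of AGO3, and the row has 10 annotated transcripts. Its counts may come from any of the 3 genes, and how they divide was not measured. The row had 58.0, 74.9 and 79.2 CPM in the lowest, median and highest LFC pig and 68.0, 79.5 and 97.1 CPM in the HFC pigs. No LFC pig was above the HFC median, and 4 HFC pigs were above every LFC pig. The log2 fold change was 0.17 with an SE of 0.09 (edgeR quasi-likelihood, adjusted p = 0.451).

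Ratios within a library do not depend on how libraries are scaled. Of the counts on the AGO2 and AGO3 rows together, AGO2 took 8.43% in the lowest, 9.06% in the median and 12.8% in the highest LFC pig, and 9.27%, 12.5% and 18.3% in the HFC pigs. The mean share was 9.91% ± 1.77 (SD, n = 8) and 13.0% ± 2.91 (SD, n = 8), a difference of 3.09 percentage points (exact two-sided permutation test over 12870 splits, p = 0.0207, or 0.0620 adjusted over the 3 ratios tested). The 2 rows differ in length, so the share does not say which is the more abundant transcript. Leaving out 1 pig at a time, the difference ran from 2.33 to 3.62 percentage points, and its adjusted p was below 0.05 without LFC replicate 2, LFC replicate 4, HFC replicate 3 or HFC replicate 5. The log2 ratio of DICER1 to DROSHA was 0.63 ± 0.25 (SD, n = 8) in LFC and 0.83 ± 0.26 (SD, n = 8) in HFC (exact two-sided permutation test, p = 0.150, adjusted 0.225).

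TNRC6A and TNRC6B are the scaffold proteins that join the Argonautes to the deadenylases. TNRC6A (ENSSSCG00000038870, on an unplaced scaffold, 580337 to 823839) had the smallest p of the 8 genes. In the LFC pigs it had 38.9, 51.8 and 65.0 CPM in the lowest, median and highest animal, and in the HFC pigs 51.9, 67.6 and 82.5 CPM. Every HFC pig was above the LFC median, 4 were above every LFC pig, and the lowest HFC pig was again replicate 5. The means were 51.5 ± 7.58 CPM (SD, n = 8) and 69.0 ± 11.06 CPM (SD, n = 8), a log2 fold change of 0.42 with an SE of 0.11 (edgeR quasi-likelihood, adjusted p = 0.383). The nominal p was 0.0013. DESeq2 gave TNRC6A an adjusted p of 0.0767, the smallest of any of the 8 genes under any setting. No RefSeq entry, not even TNRC6A itself, was found under the deposited scaffold name, so overlap with neighbours could not be checked.

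TNRC6B (ENSSSCG00000000078, chromosome 5, 8060526 to 8311105) had 6.16, 12.05 and 16.6 CPM in the lowest, median and highest LFC pig and 7.52, 15.1 and 19.8 CPM in the HFC pigs. All HFC pigs except replicate 5 exceeded the LFC median. The log2 fold change of 0.41 was nearly that of TNRC6A, but the SE of 0.21 was wider, since the gene varied more between the pigs of a group (edgeR quasi-likelihood, adjusted p = 0.444). Within a pig, the log2 ratio of TNRC6A to TNRC6B was 2.25 ± 0.41 (SD, n = 8) in LFC and 2.23 ± 0.29 (SD, n = 8) in HFC, apart by -0.01 (exact two-sided permutation test, p = 0.942). When pigs were left out in turn that difference took either sign, between -0.09 and 0.09.

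The same 3 pigs were low in most of the 8 genes. HFC replicate 5 was the lowest pig of its group for each of the 8 genes, and in the LFC group replicate 4 was the lowest for 4 genes and replicate 6 for 3. In these 3 pigs every one of the 8 genes was below its mean over the 16 pigs. For AGO2, however, LFC replicates 4 and 6, at 8.52 and 7.36 CPM, were above the LFC median of 7.33 CPM. In HFC replicates 1, 3, 4, 7 and 8 every one was above it. Without HFC replicate 5, 6 of the 8 genes had a nominal p of 0.05 or less with a higher level in the HFC pigs, against 13.8% of all genes tested in that fit. The log2 fold changes were then 0.74 for AGO2, 0.52 for TNRC6B, 0.51 for DICER1, 0.49 for TNRC6A and 0.37 for XPO5, and the smallest adjusted p was 0.0902 in edgeR. With LFC replicates 4 and 6 and HFC replicate 5 all left out, a set chosen after seeing the data, 5 of the 8 genes had a nominal p of 0.05 or less, against 7.69% of all genes in the same direction.

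These pigs also stood apart in a measure taken over other genes. For each pig, the deviation of every gene from its mean over the 16 pigs was regressed on the log2 length of the gene in the genome, leaving out the 8 silencing genes. The slope was between -0.0750 and -0.0593 in the 3 pigs and between -0.0174 and 0.0581 in the other 13. Its mean was -0.0154 ± 0.0404 (SD, n = 8) in LFC and 0.0154 ± 0.0348 (SD, n = 8) in HFC (exact two-sided permutation test, p = 0.124). By the spans used here the silencing genes are long, with a median of 129 kb against 30.9 kb over all genes tested. By the same measure 57.1% of all genes are shorter than the shortest of them, DGCR8. Some of these spans are wider than the RefSeq gene, which fills 40.7% of the span for DGCR8, 47.6% for AGO2 and 53.4% for the AGO3 row. It fills 73.7% for DROSHA, 94.9% for XPO5 and 100% for DICER1 and TNRC6B. The 3 pigs had 642 to 1414 CPM of HBB, while the other 13 had 61.9 to 805 CPM with a median of 273 CPM. HFC replicate 5 and LFC replicate 6 also had the fewest counted reads of all pigs, 6010629 and 6258650, while LFC replicate 4 had 7439215. HFC replicate 2 and LFC replicate 1 had fewer than this last pig, 7000177 and 7328500. The TMM scaling factors were lowest in LFC replicate 4 (0.884) and HFC replicate 5 (0.887), followed by HFC replicate 2 (0.930) and LFC replicate 6 (0.934). The group medians were 7803047 reads in LFC and 9027332 in HFC. The part of blood or of read depth in these values was not tested.

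**Figure D2:**
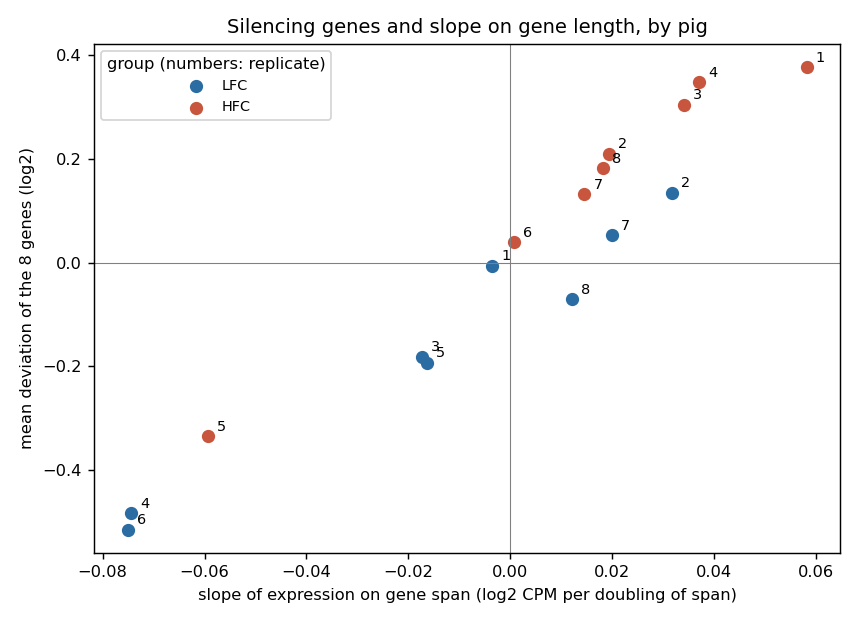
Mean deviation of the 8 silencing genes from their 16-pig means (vertical axis, log2) against the slope of expression on gene length (horizontal axis, log2 CPM per doubling of span), 1 point per pig with its replicate number. LFC replicates 4 and 6 and HFC replicate 5 sit at the lower left, with slopes of at most -0.0593.

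Each of the 8 genes was positively related to this slope across the pigs. TNRC6B followed it most closely, with r = 0.97 (Pearson) and rho = 0.891 (Spearman) over 16 pigs, and r was 0.88 without the 3 low pigs. DICER1 had an r of 0.92 and a rho of 0.926, XPO5 of 0.91 and 0.782, the AGO3 row of 0.89 and 0.915, DROSHA of 0.88 and 0.765, TNRC6A of 0.78 and 0.879, and AGO2 of 0.68 and 0.744. DGCR8 was the least related, at 0.56 and 0.435. The permutation p-values of r, adjusted over the 8 genes, ran from 2e-05 to 0.0245, and those of rho from 4e-05 to 0.0957, the highest in each case being that of DGCR8. Without LFC replicates 4 and 6, the pigs farthest from the median slope, r was 0.27 for DGCR8. For the 7 other genes it was between 0.72 and 0.93. With HFC replicate 5 left out too, DGCR8 had an r of 0.07. Within the LFC pigs r was between 0.26 (AGO2) and 0.97, and within the HFC pigs between 0.62 (DGCR8) and 0.96. For AGO2 the exact permutation p within the LFC pigs was 0.561 (n = 8), while within the HFC pigs r was 0.89. A relation of this kind was common among other genes, since 9.23% of all genes tested had an r of at least 0.8 with the slope, as did 5 of the 8 silencing genes.

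With the slope added to the model, the log2 fold changes of all 8 genes were smaller. AGO2 had a log2 fold change of 0.44 with an SE of 0.17 and TNRC6A of 0.28 with an SE of 0.09, and these were the 2 genes of the 8 with a nominal p of 0.05 or less, against 2.66% of all genes in that direction. Their adjusted p-values in edgeR were 0.937 and 0.847. DICER1 had 0.14, XPO5 0.08, TNRC6B 0.06, the AGO3 row 0.05 and DGCR8 0.03, with SEs from 0.06 to 0.10, and DROSHA was at -0.00016.

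**Figure D3:**
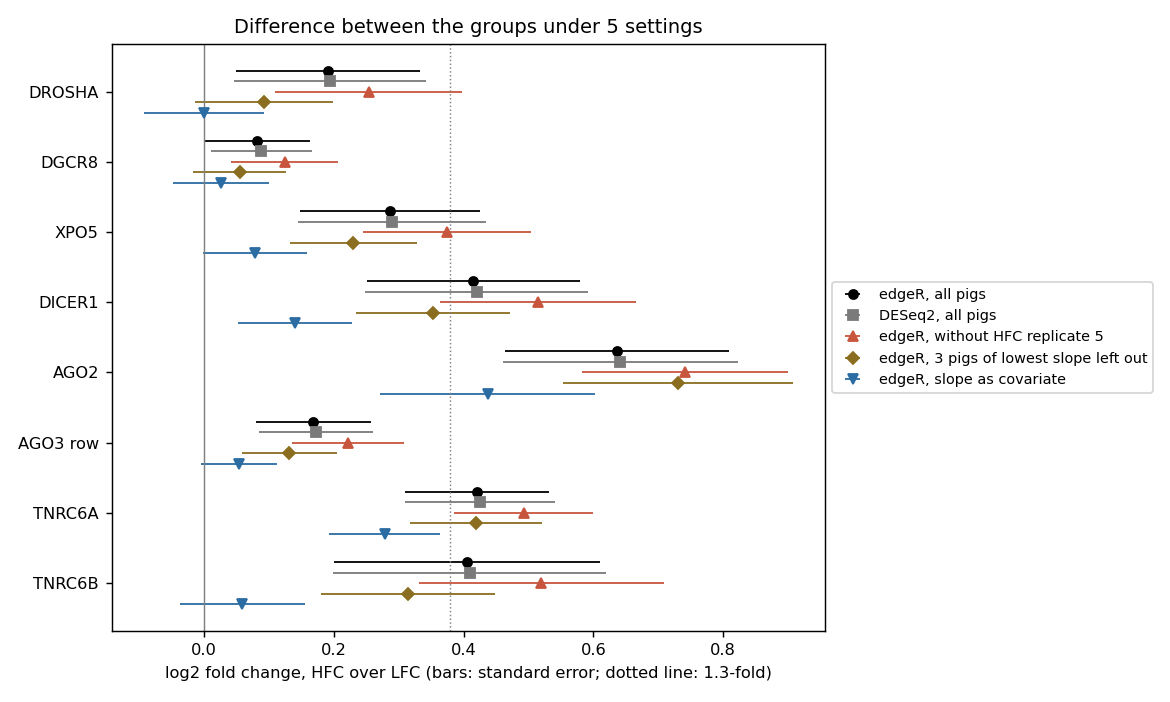
Log2 fold change of HFC over LFC (horizontal axis) with its standard error for each gene under 5 settings; the dotted line marks 1.3-fold. With the slope on gene length in the model AGO2 stayed at 0.44 and TNRC6A at 0.28, while DROSHA, DGCR8, TNRC6B and the AGO3 row came to 0.06 or less.

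The 8 genes varied together, and most of them also varied with many other genes. All 28 pairs had a positive Pearson's r over the 16 pigs, with a median of 0.72, and 11 pairs had an r of at least 0.8. Named genes with such an r numbered 45 for DGCR8, 48 for AGO2, 296 for TNRC6A and 748 for DROSHA. They numbered 858 for the AGO3 row, 972 for DICER1, 1073 for XPO5 and 1077 for TNRC6B. The share over all pairs of genes was not measured. The closest pair was DICER1 and the AGO3 row (r = 0.91, rho = 0.938), followed by XPO5 with TNRC6B and the AGO3 row with TNRC6B, both with an r of 0.90. The most distant pair was DGCR8 and AGO2 (r = 0.23, rho = 0.124). After adjustment over the 28 pairs, the permutation p of r was at most 0.05 for 23 pairs and that of rho for 22. The median r was 0.64 within the LFC pigs, where AGO2 and DGCR8 had an r of -0.39, and 0.73 within the HFC pigs. Without the 3 low pigs the median r was 0.58, and the closest pair was then DICER1 and TNRC6A at 0.92. In those 13 pigs AGO2 had an r of 0.85 with TNRC6A and 0.81 with TNRC6B. DGCR8 had at most 0.42 with any of the other 7 genes. With the 2 pigs most distant from the median of the first gene of each pair removed, the median r was 0.67.

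**Figure D4:**
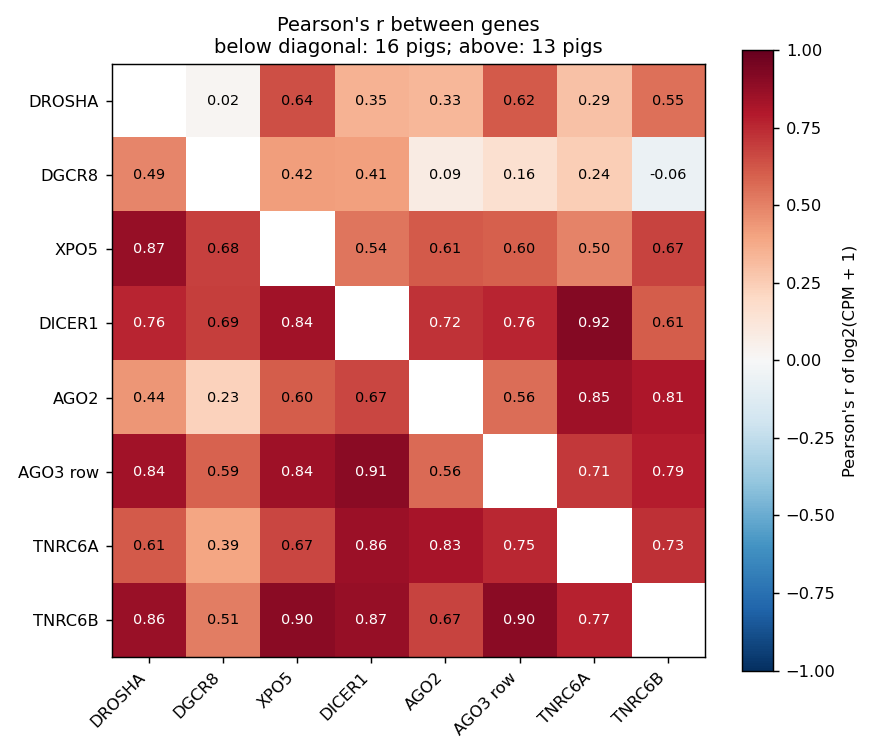
Pearson's r of log2(CPM + 1) between the genes, over all 16 pigs below the diagonal and over 13 pigs, without LFC replicates 4 and 6 and HFC replicate 5, above it. DGCR8 has the palest row and column, and DICER1 with TNRC6A is the darkest cell above the diagonal at 0.92.

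Outside the silencing genes and the partner lists described next, the named genes with the highest mean r to the 8 over the 16 pigs were TRRAP, a scaffold of histone acetyltransferase complexes (0.84), GBF1, an exchange factor for small GTPases of the Golgi (0.84), HUWE1, a ubiquitin ligase (0.84), SETD5 (0.84) and ATXN2, an RNA-binding protein (0.84). Their log2 fold changes between 0.40 for ATXN2 and 0.67 for HUWE1 each had an adjusted p of 0.413 in edgeR. Taken singly, the gene most like DICER1 was the bicarbonate transporter SLC4A8 (r = 0.97) and that most like XPO5 was AP2B1, a subunit of the clathrin adaptor (r = 0.97). TNRC6B was most like DIP2C (r = 0.97), the AGO3 row most like the histone demethylase KDM5B (r = 0.95), DROSHA most like TNR (r = 0.94) and TNRC6A most like EML6 (r = 0.93). DGCR8 was most like SUGP2 (r = 0.92), with only 1 named gene at an r of at least 0.9, and AGO2 most like TENM1 (r = 0.88), with 0 at that level. By contrast 295 named genes had an r of at least 0.9 with TNRC6B and 291 with XPO5.

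The partners of the machinery had log2 fold changes on both sides of 0. Of 81 partner genes sought, 77 were tested, 47 of them with a log2 fold change above 0, and the median was 0.04. A nominal p of 0.05 or less was found for 10 with a higher level in the HFC pigs and for 1 with a lower level, against 7.03% and 4.41% of all genes. None was called in edgeR's quasi-likelihood test or in DESeq2, and the smallest adjusted p in edgeR was 0.413. Without HFC replicate 5 the 10 became 19, against 13.8% of all genes, and with the slope on gene length in the model they became 0, against 2.66%.

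Among 12 genes of the nuclear steps and export, 0 had a nominal p of 0.05 or less, against 11.4% of all genes. A log2 fold change above 0 was found for 8, against 47.9% of all genes. The smallest p in that direction was that of KHSRP, an RNA-binding protein that helps to process some microRNAs (log2 fold change 0.39, adjusted p = 0.447 in edgeR), followed by the RNA-editing enzyme ADAR (0.30, adjusted p = 0.4998 in edgeR). RAN, the GTPase that drives export by XPO5, had 304 ± 36.7 CPM (SD, n = 8) in LFC and 258 ± 52.7 CPM (SD, n = 8) in HFC (log2 fold change -0.24, adjusted p = 0.444 in edgeR). The other gene named in this direction was SRSF3, at -0.08.

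Among 21 partners of DICER1 and of Argonaute loading, 13 had a log2 fold change above 0, against 47.9% of all genes. TNRC6C, the remaining TNRC6 gene, was the 1 gene of the 21 with a nominal p of 0.05 or less, against 11.4% of all genes. It had 21.1, 31.2 and 46.0 CPM in the lowest, median and highest LFC pig and 22.9, 43.4 and 52.7 CPM in HFC, or a log2 fold change of 0.38 with an SE of 0.16 (edgeR quasi-likelihood, adjusted p = 0.417). This log2 fold change lay between those of XPO5 and TNRC6B, and 7 of the 8 HFC pigs were above the LFC median. TNRC6C too is on the study's own list. ZNF598, a ubiquitin ligase of stalled ribosomes, had 0.30. TARBP2, the double-stranded RNA-binding partner of DICER1, was at -0.23 and AHSA1, a co-chaperone of HSP90, at -0.13, with adjusted p = 0.503 and adjusted p = 0.466 in edgeR.

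Deadenylation is the step that TNRC6 proteins recruit. Of its 19 genes 10 had a log2 fold change above 0 and 4 had a nominal p of 0.05 or less with a higher level in the HFC pigs, against 47.9% and 7.03% of all genes. The 4 were PAN3, a subunit of the PAN2-PAN3 deadenylase (0.40), CNOT3 (0.42), and, named after their values were seen, CNOT1, the scaffold of the CCR4-NOT complex (0.24), and TOB2 (0.27). With the slope on gene length in the model, 0 of the 19 had such a p. CNOT3 had 46.0 ± 12.4 CPM (SD, n = 8) in LFC and 61.4 ± 13.0 CPM (SD, n = 8) in HFC. CNOT7 and CNOT8, the related catalytic subunits of the same complex, were at -0.26 and -0.22 and exceeded the LFC median in a single HFC pig each (adjusted p = 0.453 and adjusted p = 0.502 in edgeR). The adjusted p of all 6 genes was at least 0.413 in edgeR.

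Of 14 genes of decapping and decay, 10 had a log2 fold change above 0, against 47.9% of all genes. A nominal p of 0.05 or less was found for 1 gene in each direction. Over all genes the shares were 7.03% higher and 4.41% lower in the HFC pigs. The decapping enzyme DCP2 was the partner gene with a nominal p of 0.05 or less and a lower level in the HFC pigs, at 32.9 ± 3.04 CPM (SD, n = 8) in LFC and 29.1 ± 2.65 CPM (SD, n = 8) in HFC (log2 fold change -0.18, adjusted p = 0.430 in edgeR). Its activator DCP1A was at 0.24 (adjusted p = 0.433 in edgeR) and the scaffold EDC4 at 0.28 (adjusted p = 0.450 in edgeR). LSM1, of the ring that binds shortened tails, was at -0.26.

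Of 15 genes of microRNA turnover and tailing, 11 were tested and 4 had a nominal p of 0.05 or less, all with a higher mean in the HFC pigs, against 7.03% of all genes. With the slope in the model this count too was 0. ZCCHC6 and ZCCHC11 encode the terminal uridylyl transferases TUT7 and TUT4, which add uridines to small RNAs. ZCCHC6 had 22.4 ± 3.19 CPM (SD, n = 8) in LFC and 27.8 ± 4.33 CPM (SD, n = 8) in HFC, or a log2 fold change of 0.31 (adjusted p = 0.413 in edgeR). ADARB2, a relative of the editing enzymes, had 0.55, and its highest HFC pig, at 43.2 CPM, was far above the HFC median of 16.9 CPM. ZCCHC11 (0.28) and DIS3L2, the exonuclease that degrades uridylated RNA (0.26), were named after their values were seen. The exonuclease ERI1 was at -0.30, with 0 of the 8 HFC pigs above the LFC median (adjusted p = 0.455 in edgeR), and PNPT1 was at -0.13.

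**Figure D5:**
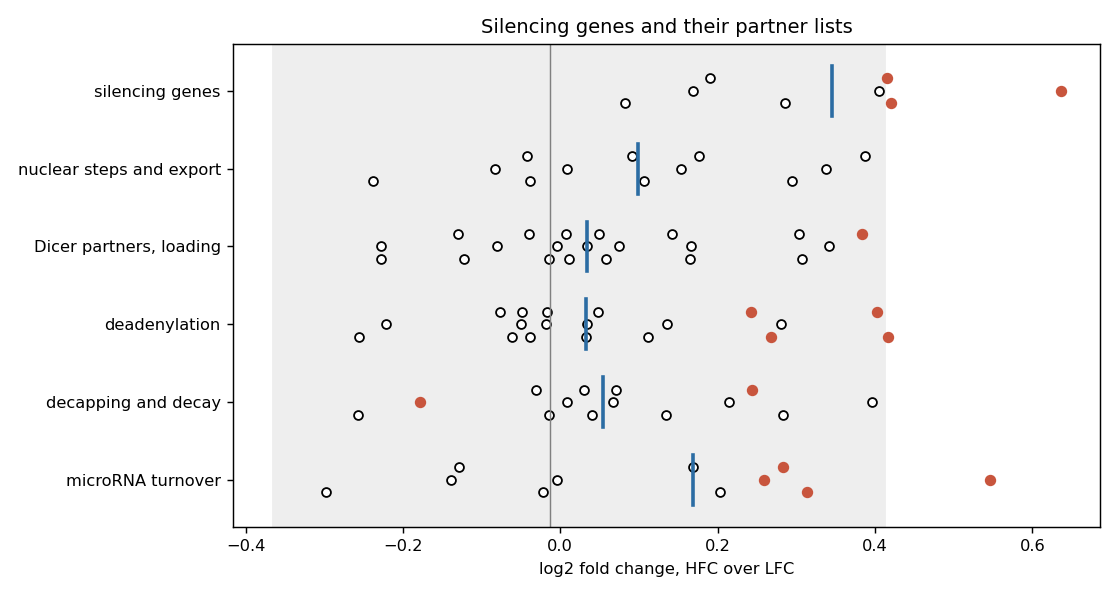
Log2 fold change of HFC over LFC (horizontal axis) for each silencing gene and partner gene by list; filled points have a nominal p of 0.05 or less, blue bars are the medians, the grey line is the median of all genes tested and the grey band holds their 5th to 95th percentiles. The median of the silencing genes is 0.35, and those of the partner lists are between 0.03 and 0.17.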

How the data were processed

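Pituitary RNA of 8 LFC and 8 HFC Złotnicka White gilts was sequenced from unstranded libraries (TruSeq RNA kit, single reads). The deposited counts are whole numbers of reads per gene, not normalized, which the authors made from cleaned reads aligned with STAR and RSEM on the Ensembl annotation of Sscrofa11.1. The counting step itself is not given in the sources used here. Groups were taken from the labels, where they stand under a tag named shear force. The deposited comparison (group means, fold changes and p-values) was used only for symbols and positions. Members and lists were chosen with earlier results of these data known.

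Groups were compared with edgeR 4.0.16 (R 4.3.3) by the quasi-likelihood F test, after TMM scaling and edgeR's filter on low expression (13621 genes kept). Benjamini-Hochberg adjustment covered all genes tested. Standard errors came from the F statistic. Expression is CPM, and relations used log2(CPM + 1) with 100000 resamples, or exact permutations within groups. Partner genes without a deposited symbol were named from the reference table of Ensembl identifiers. Gene length was the span in the genome, from the deposited positions or the RefSeq table (1961 genes) of the same assembly, known for 94.3% of the genes tested; exonic lengths were not used here, so levels are not compared between genes. Named genes were all members found, in each partner list the 2 with the smallest p in each direction, and the genes with the highest r. Alternatives were DESeq2 1.42.0, limma 3.58.1 voom with quality weights, other scalings and filters, robust estimation, a replicate block, the slope as covariate, and each pig left out. Of the fits, the main edgeR one alone was tested on simulated counts, drawn gene by gene without a slope on gene length. It called 79 of 100 genes changed 2-fold, 47 of 100 changed 1.5-fold and 10 of 13421 unchanged genes. Libraries of a group all differed by more than sampling noise (chi-square per degree of freedom 11.4 to 85.9 between pairs). The p-values of the fits set a group difference against the spread between pigs, and the permutation p-values come from reordering the pigs. The sum over the posterior lobe glia markers is not reported here.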

Additional observations from a re-analysis of the deposited data

Results flagged for a closer look

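Among 22 groups of 8 values examined, 1 held a pig far from the others, and chance gives about 1 in 20. AGO2 in LFC replicate 2 was at 11.12 CPM, with the next LFC pig at 8.52 CPM, a gap of 0.592 of the range of the group against a critical value of 0.526. Without this pig the log2 fold change of AGO2 was 0.73 in place of 0.64, and the adjusted p in edgeR was 0.213.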

How the results depend on the processing

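The 8 genes were compared under 27 alternatives, which gave 216 log2 fold changes. Of these 215 were above 0, and the exception was DROSHA with the slope on gene length in the model, at -0.00016. None had an adjusted p of at most 0.05, the smallest being 0.0767 for TNRC6A in DESeq2. The count of genes called in the whole transcriptome was 0 in each alternative with edgeR or limma and 29 in DESeq2, and 1559 genes had a nominal p of 0.05 or less without a fold minimum. That last count was 2540 with limma voom and quality weights, 639 with the slope in the model, and from 989 (without HFC replicate 4) to 3514 (without HFC replicate 5) in the fits that left out 1 pig. Of the 8 genes, 5 had a nominal p of 0.05 or less in DESeq2, where 6.10% of 18963 genes had one with a higher level in the HFC pigs, 5 with limma voom (9.64% of all genes tested) and 5 with the 3 pigs of lowest slope left out (7.69%). In the fits that left out 1 pig the number was from 2 (without HFC replicate 4, 4.53%) to 6 (without HFC replicate 5, 13.8%), and it was 5 without LFC replicate 2 (9.69%) or LFC replicate 8 (7.20%). The cause was not tested. The log2 ratio of TNRC6A to TNRC6B ran from -0.0921 to 0.0912 with 1 pig left out, and the other 2 ratios kept their sign. The difference in the AGO2 share ran from 2.33 to 3.62 percentage points, and its exact permutation p adjusted over the 3 ratios, 0.0620 in all pigs, was 0.0434 without LFC replicate 2, 0.0317 without LFC replicate 4, 0.0378 without HFC replicate 3 and 0.0205 without HFC replicate 5.

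The labels number the pigs of both groups alike, but they are unrelated. The correlation of same-numbered pigs after removal of the group means was between -0.34 and 0.37, and 1 pig correlated best with its own number. With a replicate block the log2 fold changes of AGO2, TNRC6A and DICER1 were 0.60, 0.42 and 0.42, 3 of the 8 genes had a nominal p of 0.05 or less, and 0 genes were called. Division by gene length was not run for the ratios. Precision is limited for AGO2 and TNRC6B, which had as few as 37 and 36 counts in a pig.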
